A study of Mus musculus with 18 samples.

Results

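The genes described here are 38 mouse genes of glycolysis and of the hypoxia response, named in a list and found by symbol among the 48795 genes of the table, where 38 of 38 were present. They fall into 16 glycolytic enzymes, 7 transporters and flux switches of the same pathway, 13 targets of the hypoxia-inducible factors (HIF) that are not glycolytic enzymes, and the 2 HIF alpha subunits. Glycolysis splits glucose into pyruvate, which lactate dehydrogenase can reduce to lactate for export. HIF is a transcription factor whose alpha subunit is hydroxylated and degraded when oxygen is plentiful; when oxygen falls it pairs with Arnt and binds a short core motif near its target genes. Many glycolytic genes are themselves HIF targets, and gliomas are known for hypoxic regions and for a high rate of glycolysis, so the enzymes are kept apart below from targets with other functions.

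RNA came from GL261 GFP, a C57BL/6 mouse glioma line that carries green fluorescent protein, and from tumours it formed in mice. The 18 libraries form 6 groups of 3: unsorted tumours of Pfp/Rag2-/- mice, unsorted tumours of WT mice, GFP- cells sorted from WT tumours, GFP+ tumour cells sorted from Pfp/Rag2-/- mice, GFP+ tumour cells sorted from WT mice, and the cultured GFP+ cells that had been injected. Tumours were taken when the mice had symptoms, 6 mice of each genotype, all of strain C57BL/6, and were dissociated with collagenase. The culture medium held 4.5 g/L glucose and 1 mM pyruvate. Pfp/Rag2-/- mice lack perforin and mature T and B cells, but still have macrophages, microglia and natural killer cells; the mouse ages are not given in the labels. Whether 1 library stands for 1 mouse or for several is not stated, so the spread behind each p-value may be technical.

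Levels are normalized counts, which are read counts divided by the authors' size factor for each library. They can be compared between libraries, but between genes only after division by length. Log2 differences are computed on log2(normalized count + 1), which understates changes of low genes, and carry their standard error (SE). Genes with a limma p under 0.05 after Benjamini-Hochberg adjustment over all genes tested are named as called. Libraries held 19172814 to 21141662 reads. Prf1, the perforin gene removed from the mutant host, gave 8, 15 and 18 reads where unsorted tumours came from Pfp/Rag2-/- mice, against 118, 110 and 160 from WT mice. In GFP+ cells it gave 128, 6 and 1 reads in the Pfp/Rag2-/- host, against 123, 5 and 11 in the WT host, and GFP- cells had 1847, 1348 and 2813. The library labelled Pfp/Rag2-/- GFP+ 1 was thus as high in Prf1 as its WT counterpart, and the source of these reads was not tested. Its Gpd1 count, 792, lay near the other GFP+ libraries of its label (771 and 821) and above the WT GFP+ libraries (61.3, 103 and 189.7). Gpd1 was called between hosts with this library in the fit, so its count is no independent check of the label. For Rag2 the unsorted libraries of Pfp/Rag2-/- tumours held 5, 7 and 4 reads and the GFP+ libraries of that host 5, 0 and 0, with 0 in every WT library and 0, 1 and 0 in culture. Without Pfp/Rag2-/- GFP+ library 1, 23 of the 38 genes below were called between hosts in sorted cells, beside 25 with it. The counts were 29 against culture and 12 between unsorted and sorted Pfp/Rag2-/- tumours, beside 29 and 17 with it. Library 1 of each GFP+ tumour group was the highest of its group in macrophage and microglia RNA, but not in RNA of every other cell type. In the WT host library 3 was the highest for endothelial markers, with medians of 4.87%, 7.60% and 27.2% of the GFP- level in libraries 1 to 3. It was also the highest for pericyte and fibroblast markers (5.83%, 6.14% and 21.1%) and for summed oligodendrocyte markers (9120, 8489 and 16028). The median of 13 macrophage and microglia markers, as a percentage of the level in GFP- cells, was 2.35, 0.449 and 0.429 in Pfp/Rag2-/- GFP+ libraries 1 to 3 and 2.48, 0.592 and 1.53 in the WT ones, with 7 or 8 of the markers at 0 in each culture library. T cell markers were low in the same GFP+ libraries, with a median of 0.0640% to 0.350% of the GFP- level in the Pfp/Rag2-/- host and 0.298% to 3.06% in the WT host. Sums of 2 further lists did not overlap between the hosts. The 8 pericyte and fibroblast markers summed to 10428 to 13764 normalized counts in Pfp/Rag2-/- GFP+ cells, 3856 to 5138 in WT GFP+ cells and 5099 to 5438 in culture, with Kcnj8 at 0 in WT library 2 and 1 to 4 markers at 0 in culture libraries. The 7 oligodendrocyte markers summed to 16730 to 18428 in Pfp/Rag2-/- GFP+ cells, 8489 to 16028 in WT GFP+ cells and 38733 to 40747 in culture, where Mobp was at 0. The part of these cells in the host results was not tested.

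The HIF core motif is ACGTG or GCGTG. It was searched on both strands in the RefSeq promoter windows of build GRCm38.p6, which run from 250 bases before to 50 bases after each transcription start. Of the 38 genes 35 had a window. The motif was present in 39 of their 51 windows (76.5%), against 14380 of 32851 windows of all genes (43.8%). It stood in 74.1% of the windows of glycolytic enzymes and in 73.3% of those of HIF targets. A match marks letters, not a bound site. The 150 bases before the start are shown for 3 HIF targets and 2 enzymes whose values carry the comparisons below, 5′ to 3′ on the gene's strand, with each motif on either strand in capitals. They lie at chr4:43506876-43507025 (plus strand, Car9), chr7:138909507-138909656 (minus, Bnip3), chr8:45999851-46000000 (minus, Ankrd37), chr7:46845654-46845803 (plus, Ldha) and chrX:106186950-106187099 (plus, Pgk1). Ldha has a further window, with 2 matches, and the one with the most matches before its start is shown.
Car9: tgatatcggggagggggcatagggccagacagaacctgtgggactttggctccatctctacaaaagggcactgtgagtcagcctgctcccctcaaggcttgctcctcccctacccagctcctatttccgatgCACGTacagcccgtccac
Bnip3: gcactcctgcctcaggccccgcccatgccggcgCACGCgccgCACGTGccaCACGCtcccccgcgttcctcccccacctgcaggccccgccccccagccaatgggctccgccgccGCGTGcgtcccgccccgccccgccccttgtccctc
Ankrd37: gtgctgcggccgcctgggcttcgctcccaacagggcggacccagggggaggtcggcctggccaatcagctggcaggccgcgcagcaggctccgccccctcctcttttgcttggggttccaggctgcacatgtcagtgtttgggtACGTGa
Ldha: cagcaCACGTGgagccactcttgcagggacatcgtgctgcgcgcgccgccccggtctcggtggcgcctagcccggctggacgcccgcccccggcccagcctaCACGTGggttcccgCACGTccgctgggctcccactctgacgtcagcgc
Pgk1: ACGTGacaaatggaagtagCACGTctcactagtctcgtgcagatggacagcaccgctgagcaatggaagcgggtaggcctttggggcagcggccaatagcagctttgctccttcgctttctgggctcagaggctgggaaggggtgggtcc

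In the 150 bases shown, the motif of Car9 lies 18 bases before the start, on the opposite strand, and that of Ankrd37 lies 6 bases before the start. The whole Ankrd37 window holds 4 matches. Where capitals read CACGTG, as in Bnip3 and Ldha, the core is present on both strands at once.

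**Figure D1:**
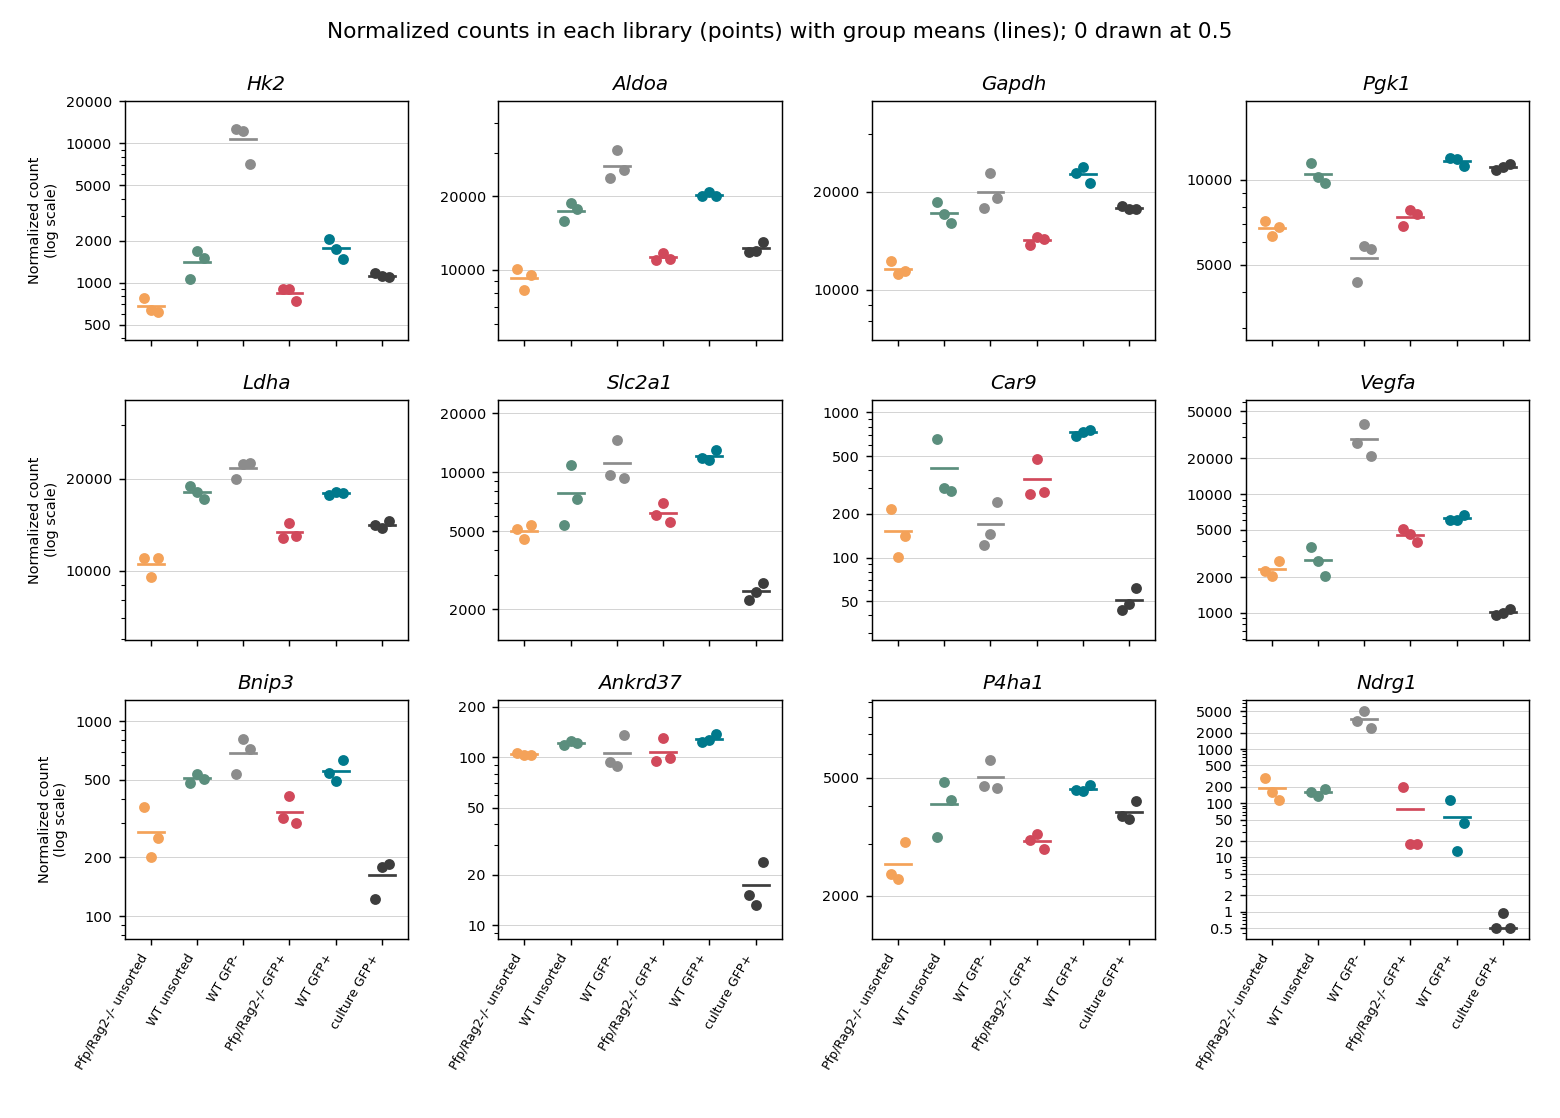
Normalized counts (log axis, a value of 0 drawn at 0.5) of 12 of the genes in each of the 18 libraries, with points for libraries and lines for the means of the 6 groups of 3. The enzymes Aldoa, Gapdh and Pgk1 are lower in Pfp/Rag2-/- than in WT GFP+ cells without overlap, while the HIF targets Car9, Vegfa and Ankrd37 are lowest in culture.

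The first comparison asked how tumour cells grown in Pfp/Rag2-/- mice differ from those grown in WT mice. Glycolytic enzyme transcripts were lower in GFP+ cells of the Pfp/Rag2-/- host almost along the whole pathway. Of the 16 enzymes 14 fell and 0 rose, with a median log2 difference of -0.64 (Pfp/Rag2-/- minus WT), beside a median of 0.02 over all genes. Of all 38 genes 25 fell and 0 rose. Over the 14807 genes tested 30.4% were called, 15.3% as lower, and 2228 genes were higher. Also at an unadjusted p under 0.05, 0 of the 38 were higher and 27 lower, and edgeR and DESeq2 each called 25 lower and 0 higher. Under quantile normalization and total read scaling Pfkp was called higher. Without WT GFP+ library 3, 1 of the 38 was called higher and 23 lower. The libraries of the hosts did not overlap for 27 of the 38, against 48.7% of all genes.

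Hk2, the inducible hexokinase, one of the enzymes that phosphorylate glucose on entry (ENSMUSG00000000628, chromosome 6, 82725025 to 82774454), had 896, 902 and 743 normalized counts in Pfp/Rag2-/- GFP+ cells, against 2063, 1741 and 1488 in WT GFP+ cells. Every Pfp/Rag2-/- library was below every WT library. The log2 difference was -1.05 (SE 0.13, limma adjusted p = 0.00203), which is 2.07-fold lower. Hk2 was also high in GFP- cells (12669, 12249 and 7095), and WT library 1, with the most macrophage marker RNA, had the highest count. In the libraries numbered 2, whose macrophage marker medians were 0.449% and 0.592%, the counts were 902 in Pfp/Rag2-/- and 1741 in WT cells. Without library 1 of both hosts the difference was -0.97 (limma adjusted p = 0.00551). The part of other cells in the Hk2 host difference was not tested.

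Aldolase, which cleaves the phosphorylated hexose, fell in both isoforms. Aldoc (ENSMUSG00000017390, chromosome 11, 78322968 to 78327781) had 967, 1039.7 and 1038 in Pfp/Rag2-/- GFP+ cells against 2219, 1932 and 2571 in WT GFP+ cells (log2 -1.13, SE 0.10, adjusted p = 0.000605 in limma). Aldoa (ENSMUSG00000030695, chromosome 7, 126795234 to 126800751) had 10961, 11652 and 11036 against 19924, 20736 and 19952 in the WT host (log2 -0.85, SE 0.05, limma adjusted p = 0.000146). Neither gene overlapped between the hosts, and the Aldoa libraries within a host were nearly equal. The later enzymes moved by similar amounts: Tpi1, Gapdh, Pgk1, Pgam1, Eno1 and Pkm lay between -0.77 and -0.59. Gapdh, the dehydrogenase that couples sugar oxidation to NADH, was 1.59-fold lower and Pkm, pyruvate kinase, 1.70-fold lower. Gapdh has 77 near-identical copies in the transcript set, which together held 2.49% of the reads of the group, more than for any other of the 38 genes.

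Smaller changes were seen in Hk1, Pfkm and Ldha. The constitutive hexokinase Hk1 had 1801, 1943 and 1788 in Pfp/Rag2-/- GFP+ cells, against 2216, 2349 and 2185 in WT GFP+ cells (log2 -0.29, SE 0.06, limma adjusted p = 0.00964). For the muscle-type phosphofructokinase Pfkm the values were 1881, 2039 and 1901 against 2356, 2459.8 and 2675 in WT cells (log2 -0.36, SE 0.06, limma adjusted p = 0.00683). Lactate dehydrogenase A, Ldha (ENSMUSG00000063229, chromosome 7, 46841475 to 46855627), had 12785, 14279.8 and 13029 against 17749, 18039 and 17978 in WT cells (log2 -0.42, SE 0.06, limma adjusted p = 0.00297). All of these were lower in each Pfp/Rag2-/- library than in each WT library. Those that did not pass the test were the platelet-type phosphofructokinase Pfkp (log2 0.10, SE 0.05) and the neuronal enolase Eno2 (0.21, SE 0.12). Summed over the 16 enzymes, glycolytic transcripts took 0.588% to 0.631% of the normalized counts in Pfp/Rag2-/- GFP+ cells, 0.885% to 0.896% in WT GFP+ cells and 0.663% to 0.693% in culture.

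Among the transporters and switches 4 of 7 fell and 0 rose (0 also at an unadjusted p). Slc2a1, the main glucose importer (ENSMUSG00000028645, chromosome 4, 119108711 to 119137983), had 6059, 6958 and 5612 in Pfp/Rag2-/- GFP+ cells against 11804, 11646 and 13032 in WT GFP+ cells (log2 -0.97, SE 0.09, limma adjusted p = 0.000617). Slc2a3, the second glucose importer, had 820.1, 984.6 and 813 against 2019, 2334 and 1404 in WT cells (log2 -1.11, SE 0.18, limma adjusted p = 0.00547). Glucose importers thus changed more than the lactate carriers in fold terms, although that difference between genes was not tested. Slc16a1 had 1009, 992 and 1002 against 1302, 1356 and 1188 in WT cells (log2 -0.35, SE 0.06, limma adjusted p = 0.00698). Slc16a3 had 3779, 4285 and 3497 against 4648, 4491 and 5051 in WT cells (log2 -0.30, SE 0.08, limma adjusted p = 0.0357), and it lost its call under 10 of 18 alternatives. Pdk1, the kinase that holds pyruvate out of the mitochondrial pathway (-0.10, SE 0.12), Pfkfb3 (0.13, SE 0.14) and Pfkfb4 (-0.00, SE 0.77), which set the level of an activator of phosphofructokinase, did not pass.

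HIF targets with other functions shared the direction in part. Of 13, 7 fell and 0 rose, with 9 lower and 0 higher at an unadjusted p, and the median was -0.45. Car9, a carbonic anhydrase at the cell surface that is a common marker of hypoxic tumour cells (ENSMUSG00000028463, chromosome 4, 43506966 to 43513729), had 276, 475 and 285 in Pfp/Rag2-/- GFP+ cells, against 689, 736 and 761 in WT GFP+ cells. Pfp/Rag2-/- library 2 was the highest of its group and still below all WT libraries (log2 -1.12, SE 0.20, limma adjusted p = 0.0078). Car12, a related enzyme, had 154, 221 and 176 against 374, 387 and 267 in WT cells (log2 -0.89, SE 0.19, limma adjusted p = 0.014). Bnip3, a receptor for the removal of mitochondria (ENSMUSG00000078566, chromosome 7, 138890836 to 138909519), had 318, 413 and 302 against 544, 496 and 629.9 in WT cells (log2 -0.70, SE 0.14, limma adjusted p = 0.0125). None of the 3 overlapped between the hosts.

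The remaining called targets moved less. Kdm3a, a histone demethylase, had 2769, 2993 and 2769 in Pfp/Rag2-/- GFP+ cells, against 4282, 4447 and 3641 in WT GFP+ cells (log2 -0.53, SE 0.08, limma adjusted p = 0.00445). Vegfa, the angiogenic growth factor, had 5076, 4648 and 3955 against 6069.9, 6066 and 6707 in WT cells (log2 -0.47, SE 0.10, limma adjusted p = 0.0121). P4ha1 and P4ha2 encode collagen prolyl hydroxylases, which act on procollagen and not on HIF. P4ha1 had 3092, 3224 and 2885 against 4543, 4519 and 4727 in WT cells (log2 -0.58, SE 0.05, limma adjusted p = 0.000678). P4ha2 had 327, 428 and 312 against 470.2, 468 and 503 in WT cells (log2 -0.45, SE 0.13, limma adjusted p = 0.0373), and it lost its call under 9 of 18 alternatives. Again no library of the Pfp/Rag2-/- host reached the WT range. Adm, Ndrg1, Egln1, Egln3, Ankrd37 and Ddit4 did not pass, with log2 differences from -0.45 (Adm) to 0.04 (Egln3). The subunits Hif1a (0.07, SE 0.06) and Epas1 (1.30, SE 0.60, adjusted p = 0.137) did not pass either, and 0 of the 2 passed at an unadjusted p. Without library 1 of both hosts 20 of the 38 genes were called, with Hk1, Slc16a3, Car12, Bnip3 and P4ha2 no longer among them.

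**Figure D2:**
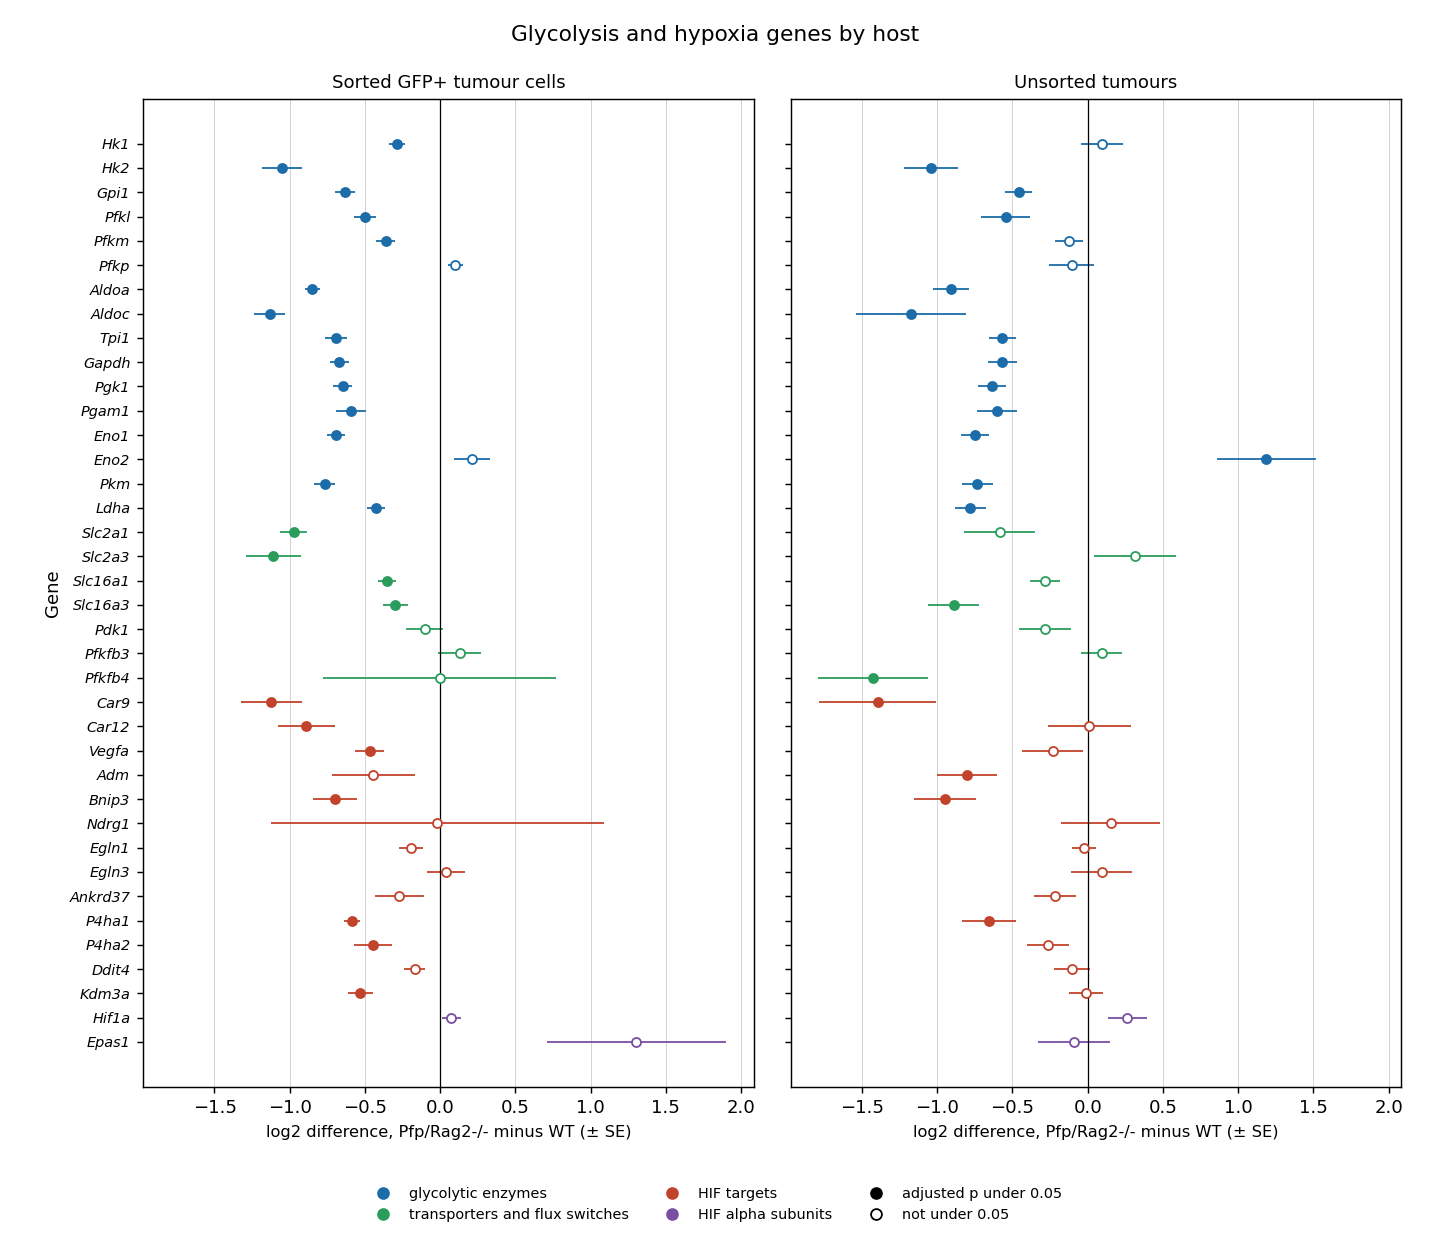
Log2 differences, Pfp/Rag2-/- minus WT, with SE bars for each of the 38 genes in sorted GFP+ cells (left) and in unsorted tumours (right), coloured by role. Filled points passed limma at an adjusted p under 0.05. In sorted cells 25 points are filled and lie below 0, and in unsorted tumours 18 lie below 0 and 1, Eno2, above.

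Unsorted samples mix the tumour cells with their stroma, so fewer cells of a type and less RNA per cell cannot be told apart in them. In unsorted Pfp/Rag2-/- tumours 18 of the 38 genes were lower than in WT tumours and 1 was higher, against 15.1% lower and 14.8% higher of the 15448 genes tested, 29.9% in all. Enzymes made up most of these, with 12 of 16 lower and a median of -0.58 (all genes 0.05). The same 12 were lower in sorted cells: Hk2, Gpi1, Pfkl, Aldoa, Aldoc, Tpi1, Gapdh, Pgk1, Pgam1, Eno1, Pkm and Ldha. The sorted and unsorted libraries are separate, although they may come from the same mice. Without Pfp/Rag2-/- library 2 the count over the 38 genes was 10.

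Aldoa had 10096, 8226 and 9522 normalized counts in unsorted Pfp/Rag2-/- tumours against 15762, 18789 and 17669 in WT tumours (log2 -0.91, SE 0.12, limma adjusted p = 0.00186). Hk2 had 781, 638 and 618 against 1058, 1692 and 1502 in WT tumours (log2 -1.04, SE 0.18, limma adjusted p = 0.0061). Ldha had 11044, 9521 and 11017 against 18894, 18115 and 17152 in WT tumours (log2 -0.78, SE 0.10, limma adjusted p = 0.00195). These libraries did not overlap between the hosts. Gpi1, the isomerase of glucose phosphate, had 6704, 6265 and 6848 against 8629, 9969 and 8693 in WT tumours (log2 -0.46, SE 0.09, limma adjusted p = 0.00963). Pfkl, the liver-type phosphofructokinase, had 4234, 3701 and 4982 against 5075, 7356 and 6492 in WT tumours (log2 -0.54, SE 0.16, limma adjusted p = 0.0413), and it lost its call under 6 of 18 alternatives. Aldoc overlapped through a single library, with 2145, 841 and 789.8 against 2086, 2640.5 and 2979 in WT tumours (log2 -1.17, SE 0.37, limma adjusted p = 0.0489, and -1.64 with adjusted p = 0.00181 without Pfp/Rag2-/- library 1). The call was lost without Pfp/Rag2-/- library 2 or 3 (adjusted p = 0.155 and 0.145) and without WT library 2 or 3 (0.108 and 0.125).

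Eno2, the neuron-specific enolase (ENSMUSG00000004267, chromosome 6, 124760053 to 124769673), went against the other enzymes, with 1802, 821 and 807 in unsorted Pfp/Rag2-/- tumours and 434, 376 and 616 in WT tumours. All Pfp/Rag2-/- libraries were above all WT libraries (log2 1.19, SE 0.33, limma adjusted p = 0.0336), and library 1 was far above libraries 2 and 3. Without that library the difference was 0.81 (adjusted p = 0.0412), and without library 2 it was 1.37 (adjusted p = 0.0565); without WT library 1 or 2 the call was lost as well (adjusted p = 0.0568 and 0.0913). The 6 neuron markers moved with it: their summed normalized counts were 5379, 1713 and 1491 in unsorted Pfp/Rag2-/- tumours and 907, 828 and 1426 in WT tumours, with 0 markers absent in any of these libraries. Their part in the Eno2 difference was not tested.

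Of the transporters and switches Slc16a3 and Pfkfb4 were lower in unsorted Pfp/Rag2-/- tumours, and 0 were higher (0 also at an unadjusted p, in limma). Slc16a3, the lactate exporter of glycolytic cells, had 2562, 1987 and 2837 against 3769.7, 5379 and 4545 in WT tumours (log2 -0.89, SE 0.17, limma adjusted p = 0.00841). Pfkfb4 had 44.4, 23.6 and 24.3 against 54.4, 83.7 and 116 in WT tumours (log2 -1.43, SE 0.36, limma adjusted p = 0.0249), and it lost its call under 6 of 18 alternatives. Pfkfb4 was almost wholly a gene of the GFP- fraction, with 1069.8, 1044 and 1250.4 there. The macrophage marker median was 2.27%, 1.89% and 1.87% of the GFP- level in unsorted Pfp/Rag2-/- tumours and 6.41%, 6.08% and 7.10% in WT tumours, with 0 of 13 markers at 0. The part of macrophage content in the Pfkfb4 host difference was not tested.

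Of the 13 HIF targets 4 were lower and 0 higher in unsorted Pfp/Rag2-/- tumours (the same counts at an unadjusted p, in limma). Car9 had 217, 101 and 139.8 in unsorted Pfp/Rag2-/- tumours against 657, 299.6 and 286 in WT tumours (log2 -1.40, SE 0.39, limma adjusted p = 0.0328). Bnip3 had 362, 200.2 and 252 against 484, 535 and 507 in WT tumours (log2 -0.95, SE 0.21, limma adjusted p = 0.0139). Adm, a vasodilator peptide, had 95.9, 81.5 and 111 against 158, 205 and 145 in WT tumours (log2 -0.80, SE 0.20, limma adjusted p = 0.022). P4ha1 had 2364, 2285 and 3042 against 3147, 4846 and 4209 in WT tumours (log2 -0.65, SE 0.18, limma adjusted p = 0.0306). In all 4 the hosts were separate, and without Pfp/Rag2-/- library 2 Car9, Adm and P4ha1 were not called, at limma adjusted p = 0.112, 0.0893 and 0.113 in that order. Other libraries mattered too: of 18 alternatives, calls were lost under 2 (Car9), 5 (Adm), 4 (P4ha1) and 1 (Bnip3). Kdm3a (-0.01, SE 0.11), Car12 (0.01, SE 0.28) and Vegfa (-0.23, SE 0.20) overlapped between hosts in unsorted tumours.

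Whether the host difference itself depended on sorting was tested as an interaction over 12 libraries. In limma 0 of the 38 genes passed, against 0.934% of 16161 genes (0.712% higher and 0.223% lower), with 7 at an unadjusted p under 0.05, 0 in edgeR and 3 in DESeq2. The 3 were Slc2a3 (1.38 on the log2 scale in DESeq2, unsorted host difference minus sorted, adjusted p = 0.00776), Kdm3a (0.52, adjusted p = 0.0247) and Ldha (-0.36, adjusted p = 0.0137). Slc2a3 had the smallest adjusted p in limma, 0.0723 at a difference of 1.42 (SE 0.36). Its unsorted counts were 1007, 791 and 813 in Pfp/Rag2-/- tumours and 1105, 576 and 530.3 in WT tumours, which overlap. A p that misses the threshold does not show that the host differences were alike.

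The next comparisons set GFP+ cells from tumours against the same cells in culture, for each host. Both use the same 3 culture libraries, so their results are not independent. In the Pfp/Rag2-/- host 7 of 13 HIF targets were higher and 4 lower (median 1.10), while 2 of 16 enzymes were higher and 10 lower (median -0.37). In the WT host 8 HIF targets were higher and 1 lower (median 1.71), with 9 enzymes higher and 4 lower (median 0.33). Over the 37 genes tested 13 were higher and 16 lower in the Pfp/Rag2-/- host, against 35.1% and 37.1% of 14487 genes (72.2% in all). In the WT host 22 were higher and 6 lower, against 30.3% and 35.3% of 14261 genes (65.6% in all). Pfkfb4 did not reach the filter of 10 in 3 libraries in either fit. The median over all genes was -0.01 in the Pfp/Rag2-/- host and -0.04 in the WT host.

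Among the HIF targets Car9 was higher than culture in both hosts. Its culture libraries had 43.5, 48.1 and 62.0, below every GFP+ tumour library given above, and it was 6.49-fold higher in the Pfp/Rag2-/- host (log2 2.70, SE 0.22, limma adjusted p = 6.5e-06) and 14.1-fold higher in the WT host (log2 3.82, SE 0.14, limma adjusted p = 1.74e-07). Vegfa (ENSMUSG00000023951, chromosome 17, 46016993 to 46032369) had 952, 1005 and 1085 in culture, again under all tumour libraries. It was higher by log2 2.16 (SE 0.09) in the Pfp/Rag2-/- host and 2.63 (SE 0.07) in the WT host. Unsorted tumours held less Vegfa than these sorted cells, with 2255, 2033 and 2711 in Pfp/Rag2-/- and 3557, 2760 and 2056 in WT tumours. The part of dissociation and sorting in the rise over culture was not tested. Ankrd37, an ankyrin repeat gene, had 94.97, 130.4 and 98.5 in Pfp/Rag2-/- GFP+ cells, 124, 126 and 138 in WT GFP+ cells and 15.1, 13.2 and 23.8 in culture. No tumour library overlapped culture (log2 2.60, SE 0.25, and 2.87, SE 0.23), although the tumour libraries of the hosts overlapped each other.

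Adm had 64.8, 61.5 and 42.4 in Pfp/Rag2-/- GFP+ cells, 56.5, 75.1 and 102 in WT GFP+ cells and 4.72, 0.943 and 4.77 in culture (log2 3.81, SE 0.45, and 4.26, SE 0.46). The culture counts rest on a few reads, so the size of the fold is uncertain. Bnip3 had 122, 178 and 185 in culture (log2 1.10, SE 0.18, in the Pfp/Rag2-/- host and 1.79, SE 0.17, in the WT host). Kdm3a had 1217, 1249 and 1297 in culture (1.18, SE 0.05, and 1.71, SE 0.08). For both genes all tumour libraries lay above all culture libraries.

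Ndrg1, a stress response gene often used as a hypoxia marker (ENSMUSG00000005125, chromosome 15, 66929318 to 66969640), had 202, 17.5 and 17.5 in Pfp/Rag2-/- GFP+ cells, 115, 13.3 and 42.4 in WT GFP+ cells and 0, 0.943 and 0 in culture. Culture held 1 read in all, and the ratio of summed reads was 251 (exact 95% interval 44.6 to 9949) for the Pfp/Rag2-/- host and 179 (31.7 to 7115) for the WT host, an interval that covers counting error only. Library 1 stood far above the others. Ndrg1 had 3329.9, 5101 and 2411 in GFP- cells, and its counts in GFP+ libraries were 5.58%, 0.483% and 0.484% of that level in the Pfp/Rag2-/- host and 3.18%, 0.368% and 1.17% in the WT host, with library 1 the highest in each host, as for the macrophage marker medians given above. The part of other cells in this difference was not tested.

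The other HIF targets were lower than culture, differed between the hosts in call or direction, or did not pass. Ddit4, an inhibitor of the growth kinase mTOR, had 5538, 6418 and 5509 in Pfp/Rag2-/- GFP+ cells, 6328, 6689 and 6593 in WT GFP+ cells and 11349.5, 15550.2 and 16106 in culture. Every tumour library was below every culture library (log2 -1.29, SE 0.12, and -1.12, SE 0.12). Car12 had 338, 381 and 365 in culture and was lower in Pfp/Rag2-/- cells (-0.99, SE 0.13), while in WT cells it did not pass (-0.10, SE 0.14). P4ha2 had 529, 494 and 539 in culture and showed the same order (-0.56, SE 0.11, called, and -0.12, SE 0.07, not called). P4ha1, with 3711, 3619 and 4162 in culture, was lower in Pfp/Rag2-/- cells (-0.32, SE 0.06) and higher in WT cells (0.27, SE 0.06). Egln1 and Egln3, the oxygen-dependent hydroxylases that mark HIF alpha for degradation, did not pass in either host, with differences between -0.07 and 0.13. Egln1 had 1855, 1957 and 1616 in Pfp/Rag2-/- GFP+ cells, 1967, 2094 and 2134 in WT GFP+ cells and 1938, 1873 and 1864 in culture.

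Of the HIF alpha subunits, Hif1a (ENSMUSG00000021109, chromosome 12, 73901375 to 73947530) had 3098, 3012 and 3077 in Pfp/Rag2-/- GFP+ cells, 3138, 2712 and 2889.7 in WT GFP+ cells and 2549, 2341 and 2447 in culture. The rise over culture was small (log2 0.33, SE 0.04, and 0.25, SE 0.06) but without overlap. HIF alpha is controlled mainly through its protein, so transcript levels do not measure its activity. Epas1, the second alpha subunit and abundant in endothelium (ENSMUSG00000024140, chromosome 17, 86753700 to 86833410), had 384, 126 and 127 in Pfp/Rag2-/- GFP+ cells, 69.9, 38.0045 and 149 in WT GFP+ cells and 3.78, 4.71 and 0 in culture (log2 5.94, SE 0.69, and 4.63, SE 0.72). It was at 1134, 1081 and 1061 in GFP- cells. The median of 10 endothelial markers, as a percentage of the GFP- level, was 61.2, 22.3 and 24.4 in Pfp/Rag2-/- GFP+ libraries and 4.87, 7.60 and 27.2 in WT ones, in each host highest in the library with the most Epas1, and Cdh5, Cldn5 and Kdr were at 0 in all culture libraries. The summed endothelial counts were 2411 to 3617, 2231 to 3032 and 4272 to 4385 in the same 3 groups. Their part in the Epas1 difference was not tested.

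**Figure D3:**
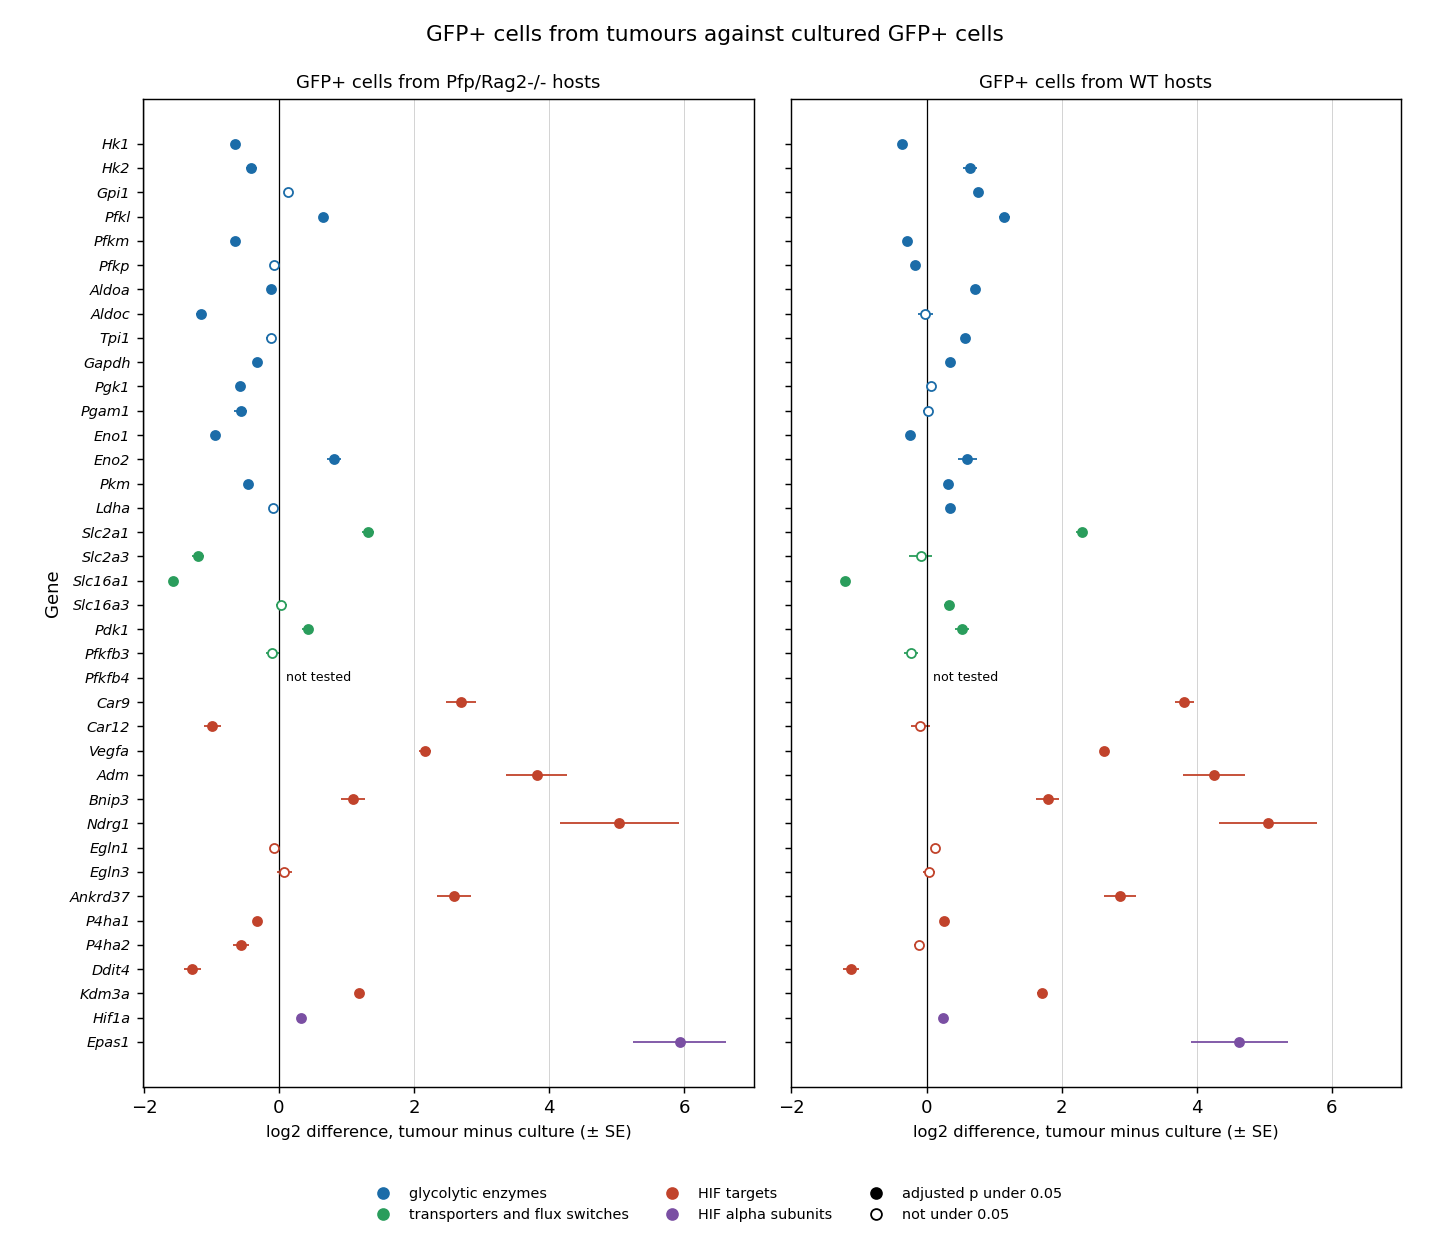
Log2 differences, GFP+ tumour cells minus cultured cells, with SE bars for the 37 genes tested (Pfkfb4 is marked as not tested) in the Pfp/Rag2-/- host (left) and in the WT host (right), coloured by role, with filled points where limma gave an adjusted p under 0.05. Most HIF targets lie right of 0 in both panels, with Ddit4 left of it, and most enzymes lie left of 0 in the Pfp/Rag2-/- host and right of it in the WT host.

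Enzymes in GFP+ tumour cells lay on both sides of culture. By group means 8 of the 16 had Pfp/Rag2-/- cells lowest, culture between and WT cells highest: Hk2, Aldoa, Tpi1, Gapdh, Pgk1, Pgam1, Pkm and Ldha. Of these only 4, Hk2, Aldoa, Gapdh and Pkm, were called on both sides of culture. Pgk1 and Pgam1 were not called in the WT host, and Tpi1 and Ldha were not called in the Pfp/Rag2-/- host. Hk2 had 1163, 1108 and 1093 in culture (log2 -0.41, SE 0.08, limma adjusted p = 0.00122, in the Pfp/Rag2-/- host and 0.64, SE 0.11, limma adjusted p = 0.000801, in the WT host). Gapdh (ENSMUSG00000057666, chromosome 6, 125161715 to 125166467) had 13761, 14520.4 and 14289 in Pfp/Rag2-/- GFP+ cells, 22862, 23742 and 21180.4 in WT GFP+ cells and 18044, 17687 and 17706 in culture (log2 -0.33, SE 0.04, and 0.34, SE 0.05). The 3 groups did not overlap for either gene. Aldoa, with 11826, 11948 and 12936 in culture, was higher in WT cells (0.72, SE 0.05). In Pfp/Rag2-/- cells it was lower (-0.12, SE 0.05, limma adjusted p = 0.0388), and the sign turned under quantile normalization (0.10) and total read scaling (0.05), so its place against culture is uncertain there.

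Hk1, Pfkm and Eno1 were lower than culture in each host. Eno1, the main enolase, had 9848, 10070.3 and 9342 in Pfp/Rag2-/- GFP+ cells, 16177, 16301 and 14798 in WT GFP+ cells and 18394, 18493 and 19314 in culture (log2 -0.94, SE 0.04, and -0.25, SE 0.05). Hk1 had 2864, 2852 and 2936 in culture (-0.65, SE 0.04, and -0.36, SE 0.05). Pfkm had 2849, 3137 and 3144 in culture (-0.65, SE 0.05, and -0.29, SE 0.06). In all 3 the groups kept the order Pfp/Rag2-/-, WT, culture without overlap. Aldoc, with 2028, 2267 and 2497 in culture, was lower in Pfp/Rag2-/- cells (-1.15, SE 0.07) and in WT cells it did not pass (-0.02, SE 0.11).

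Pfkl and Eno2 were higher than culture in each host. Pfkl had 5444, 5634 and 5219 in Pfp/Rag2-/- GFP+ cells, 7499.7, 7092 and 8457 in WT GFP+ cells and 3277, 3342 and 3731 in culture (log2 0.66, SE 0.06, and 1.15, SE 0.08). Eno2 had 508, 528 and 529.6 in Pfp/Rag2-/- GFP+ cells, 378, 522 and 460.4 in WT GFP+ cells and 252, 311 and 330.1 in culture (0.82, SE 0.10, and 0.60, SE 0.14). Gpi1 had 7300.1, 8231 and 7272 in Pfp/Rag2-/- GFP+ cells, 12147, 12058 and 11090.2 in WT GFP+ cells and 6436, 6942 and 7361 in culture. It was higher in the WT host (0.77, SE 0.06) and in the Pfp/Rag2-/- host it did not pass (0.14, SE 0.06).

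The importer Slc2a1 had 2243, 2459 and 2738 in culture, far below all tumour libraries, and was 2.501-fold higher in the Pfp/Rag2-/- host (log2 1.32, SE 0.09) and 4.91-fold higher in the WT host (2.30, SE 0.08). Slc2a3, with 1792, 2047 and 2164 in culture, was lower in Pfp/Rag2-/- cells (-1.20, SE 0.09), and in WT cells it did not pass (-0.09, SE 0.17). Slc16a1 had 2966, 3003 and 2926 in culture and was lower in both hosts, by log2 -1.57 (SE 0.04, limma adjusted p = 3.98e-09) and -1.21 (SE 0.06, limma adjusted p = 6.93e-07). Slc16a3 had 3433, 3737 and 4106 in culture and did not pass in the Pfp/Rag2-/- host (0.03, SE 0.08), while it was higher in the WT host (0.33, SE 0.07). Pdk1 had 1164, 1404 and 1171 in Pfp/Rag2-/- GFP+ cells, 1323, 1149.6 and 1560.0 in WT GFP+ cells and 867, 916 and 997 in culture (0.42, SE 0.08, and 0.53, SE 0.11). The tumour libraries of both hosts lay above culture for Slc2a1 and Pdk1 and below it for Slc16a1.

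Isozyme shares were computed from normalized counts per kb of exon. The length is that of all annotated exons together, not of the transcripts in use, so levels compare only roughly between genes. Slc2a1 made up 93.6% of the 2 glucose importers in Pfp/Rag2-/- GFP+ cells and 92.9% in WT GFP+ cells, against 71.9% in culture. Pfkl made up 48.02% of phosphofructokinase in Pfp/Rag2-/- GFP+ cells, 52.8% in WT GFP+ cells and 29.6% in culture. Pfkm had the largest share in culture, 52.3%, which rests on exon lengths of 3340 bases for Pfkm and 13401 for Pfkp. Before division by length Pfkp had the most normalized counts there, 4190, 4138 and 4351, against 2849, 3137 and 3144 for Pfkm. The share of Hk2 among hexokinases was 36.9% to 39.5% in Pfp/Rag2-/- GFP+ cells, 47.7% to 53.1% in WT GFP+ cells and 34.7% to 36.7% in culture, so the hosts did not overlap. With 3 libraries against 3 an exact permutation test cannot go below 0.10, and none is given. Ldhb, the lactate dehydrogenase of oxidative tissues, made up 14.0% in Pfp/Rag2-/- GFP+ cells and 9.05% in WT GFP+ cells. In GFP- cells Hk1 fell to 9.26% of hexokinase, against 45.4% in WT GFP+ cells, with Hk2 at 46.1% and the myeloid Hk3 at 44.7%.

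**Figure D4:**
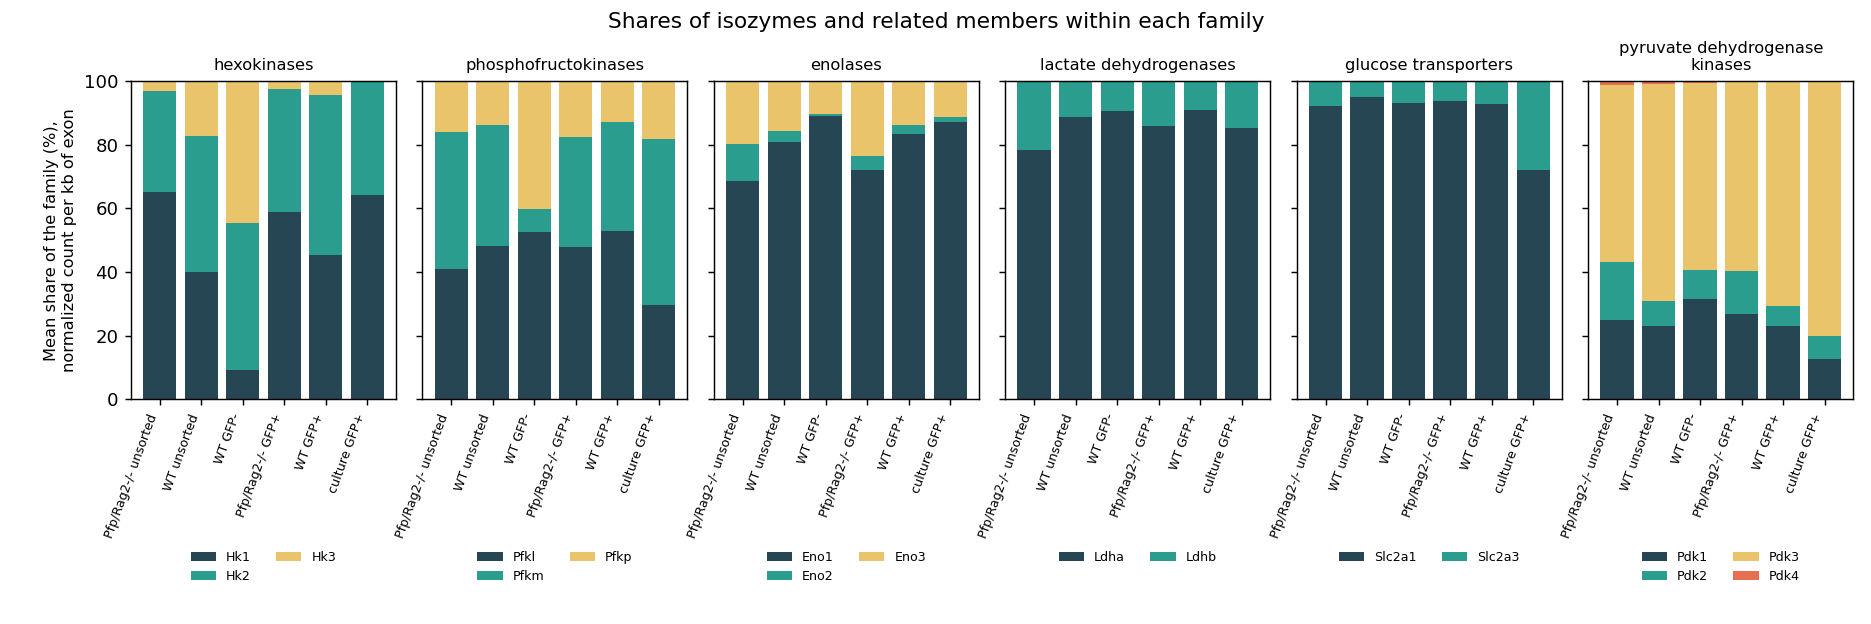
Mean share (percent, 3 libraries a group) of each gene within 6 families, from normalized counts per kb of exon, for the 6 groups. Slc2a1 holds 92.3% or more of the importers in every group from tumours and 71.9% in culture, and Hk3 and Pfkp have their largest shares in GFP- cells, 44.7% and 40.0%.

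GFP- cells of WT tumours were compared with GFP+ cells of WT tumours, and no label ties libraries of the 2 fractions to the same tumour. GFP- cells held most of the macrophage RNA of the study. In this comparison 14 of the 38 genes were higher and 9 lower, against 42.7% and 33.7% of 16083 genes. The 23 called genes are a smaller share of the 38 than the 76.4% called over all genes. Directions close to 0 depended on the scaling. GFP- libraries had size factors of 0.649 to 0.761 against 1.04 to 1.15 elsewhere. Scaling by total reads moved the median over all genes by -0.65 and quantile normalization by -0.43, with 9 and 10 of the 38 then higher and 24 and 21 lower. TMM factors moved the median by -0.12, with 12 higher and 11 lower. Under each of the 4 scalings 9 genes were called higher and 9 lower.

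The 9 higher were Hk2, Pfkp, Pfkfb3, Pfkfb4, Vegfa, Ndrg1, Egln3, Hif1a and Epas1. Pfkfb4 (ENSMUSG00000025648, chromosome 9, 108991778 to 109032228) had the GFP- counts given above and 35.4, 5.70 and 25.8 in WT GFP+ cells (log2 5.90, SE 0.62, limma adjusted p = 0.000234). Ndrg1 was higher by 6.37 (SE 0.74) and Epas1 by 3.87 (SE 0.46), from the counts given above. Pfkfb3 had 10795, 11007 and 11092 in GFP- cells against 947, 755 and 701 in WT GFP+ cells (log2 3.78, SE 0.12, limma adjusted p = 1.5e-05). Hif1a had 16190.4, 20639 and 10182 in GFP- cells, and was higher by 2.37 (SE 0.25), and Hk2 was higher by 2.56 (SE 0.25). No GFP- library of these genes overlapped a GFP+ library.

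Vegfa had 26923, 38697 and 21022 in GFP- cells and was 4.46-fold higher than in WT GFP+ cells (log2 2.16, SE 0.22, limma adjusted p = 0.000204). Egln3 had 864, 1349.5 and 799 in GFP- cells against 332, 298 and 284 in WT GFP+ cells (1.68, SE 0.21). Pfkp had 9601, 10456 and 7375 against 3777, 3854 and 3601 in WT GFP+ cells (1.27, SE 0.14). These too were without overlap. Pgam1, phosphoglycerate mutase, had 1154, 1676 and 1278 against 756, 845 and 804 in WT GFP+ cells (0.76, SE 0.15), and Slc16a3 had 7852, 10228 and 5769 (0.71, SE 0.20). Both values hold for the deposited scaling. Hk1 (0.36), Aldoa (0.39) and Ldha (0.27) were higher with the deposited scaling and reversed under total read scaling (-0.29, -0.26 and -0.39).

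The 9 lower were Pfkm, Aldoc, Pgk1, Eno1, Eno2, Car9, Car12, P4ha2 and Kdm3a. Pfkm had 331, 305 and 582 in GFP- cells (log2 -2.68, SE 0.25, limma adjusted p = 0.000151). Car12 had 88.3, 32.4 and 63.1 in GFP- cells (-2.56, SE 0.39), Eno2 had 89.8, 98.6 and 77.6 (-2.34, SE 0.19) and Car9 had 122, 145 and 243 (-2.15, SE 0.26). P4ha2 had 98.6, 112 and 196 (-1.88, SE 0.27). Each lay below the WT GFP+ counts given above in every library. Pgk1 (ENSMUSG00000062070, chromosome X, 106187100 to 106203699) had 4341, 5843 and 5679.9 in GFP- cells and 11872, 11794 and 11142 in WT GFP+ cells (-1.15, SE 0.13, limma adjusted p = 0.000305). Of the HIF targets, Vegfa, Ndrg1 and Egln3 were thus higher in GFP- cells and Car9, Car12, P4ha2 and Kdm3a higher in WT GFP+ cells.

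**Figure D5:**
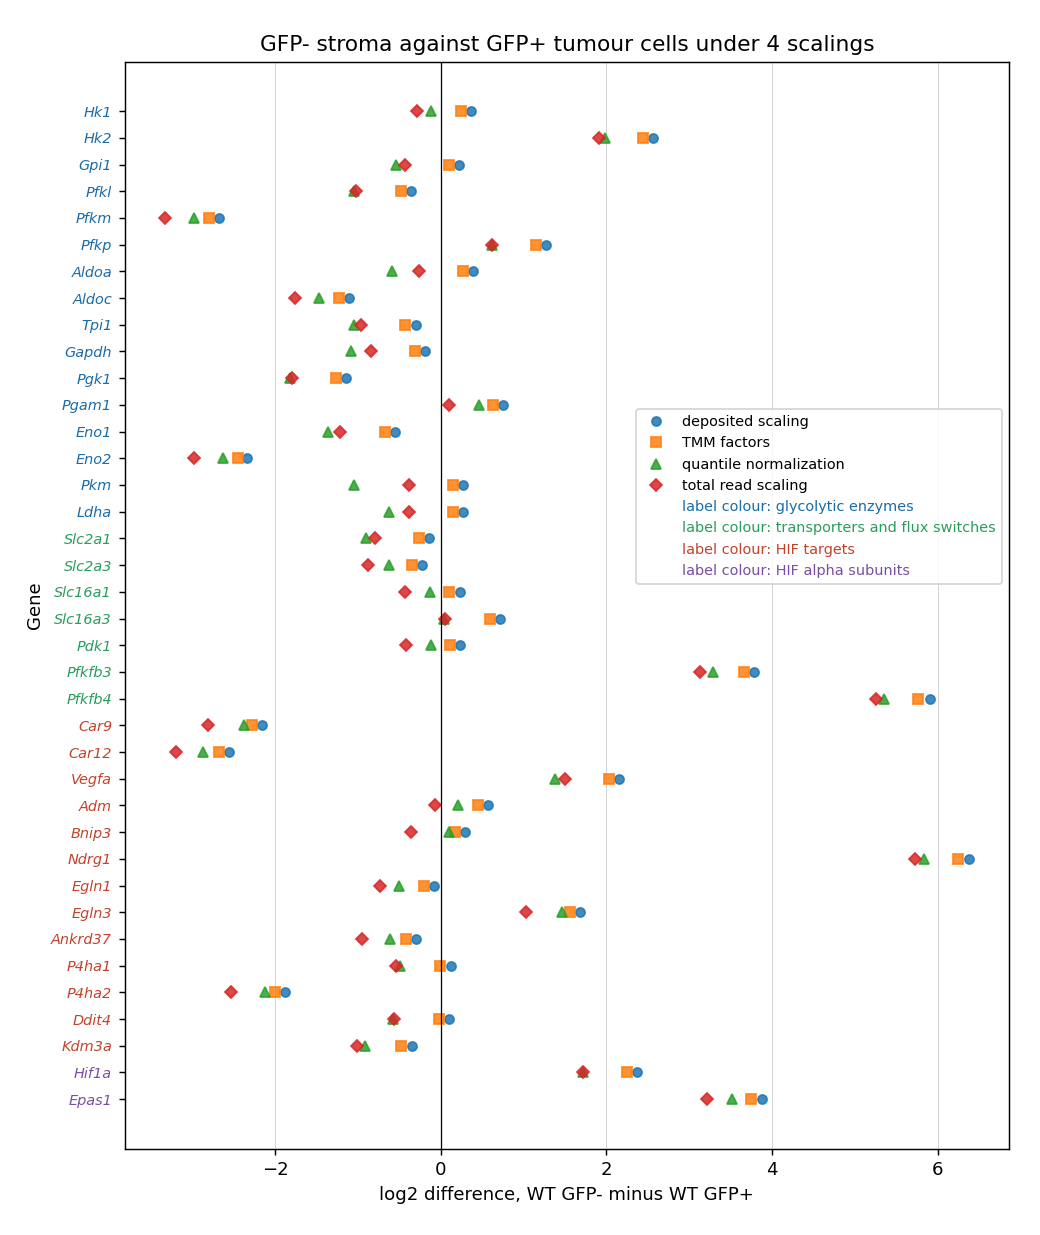
Log2 differences, WT GFP- minus WT GFP+ cells, for the 38 genes under the deposited scaling, TMM factors, quantile normalization and total read scaling, with gene names coloured by role. The marks of genes near 0, such as Hk1, Aldoa and Ldha, fall on both sides of it, and those of Hk2, Pfkfb3, Ndrg1 and Epas1 stay right of it.

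Unsorted tumours were also compared with sorted GFP+ cells of the same host. In WT tumours 2 were higher and 8 lower in unsorted than in GFP+ cells, against 10.3% and 6.46% of 15275 genes, 16.8% in all. In Pfp/Rag2-/- tumours 4 were higher and 13 lower, against 19.1% and 11.1% of 15324 genes, 30.2% in all. These counts rest on single libraries. In WT tumours 2 genes were called without unsorted library 3 and 6 without GFP+ library 1, and in Pfp/Rag2-/- tumours 4 without GFP+ library 2 and 12 without the library labelled GFP+ 1. In WT tumours only P4ha2 and Vegfa were called under every alternative run. Vegfa was lower in unsorted tumours of both hosts, with 2255, 2033 and 2711 in Pfp/Rag2-/- tumours (log2 -0.97, SE 0.13, limma adjusted p = 0.00271) and 3557, 2760.2 and 2056 in WT tumours (-1.20, SE 0.19, limma adjusted p = 0.0105). These counts lie below the GFP+ counts and far below the GFP- counts given above, and the fractions had passed a sorter while the unsorted cells had not. The part of the sorting step was not tested.

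P4ha2 was also lower, with 252, 198 and 248 in unsorted Pfp/Rag2-/- tumours (log2 -0.60, SE 0.15) and 289, 255 and 292 in WT tumours (-0.79, SE 0.11). Ddit4 had 4214, 4181 and 5074 in Pfp/Rag2-/- tumours (-0.38, SE 0.09) and 5407, 4839 and 4262 in WT tumours (-0.44, SE 0.10). Both were without overlap. Adm was higher in each host (0.78, SE 0.22, in Pfp/Rag2-/- and 1.13, SE 0.26, in WT tumours), but lost its call under 11 of 18 alternatives in Pfp/Rag2-/- and 8 of 18 in WT tumours. Epas1 was higher too, with 643, 456 and 479 in Pfp/Rag2-/- tumours (1.50, SE 0.42) and 397, 578 and 739 in WT tumours (2.89, SE 0.48), and lost its call under 8 and 1 of 18 alternatives.

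Of the enzymes in Pfp/Rag2-/- tumours 7 of 16 were lower in unsorted than in GFP+ cells and Eno2 higher (log2 1.02, SE 0.29). Among them Eno1 had 7776, 6749 and 7807 (-0.39, SE 0.07, limma adjusted p = 0.00709) against the GFP+ counts above. Pfkl (-0.35, SE 0.10) and Ldha (-0.35, SE 0.08) were lower as well. In WT tumours 3 enzymes were lower and 0 higher (0 also at an unadjusted p, in limma): Gapdh with 18524, 17098 and 15975 (-0.39, SE 0.11), Gpi1 (-0.37, SE 0.10) and Eno1 with 12627, 12829 and 11991 (-0.34, SE 0.09). None of these overlapped the GFP+ cells, but the call was lost under 6 (Gapdh), 7 (Gpi1) and 9 (Eno1) of 18 alternatives. Among the transporters Slc16a3 (-0.66, SE 0.14) and Slc2a1 (-0.30, SE 0.09, with unsorted counts of 5159.8, 4563 and 5376) were lower and Slc16a1 (0.30, SE 0.08, with 1189, 1115 and 1407) higher in Pfp/Rag2-/- tumours. There Slc2a1, Slc16a1 and Pfkl each lost the call under 9 of 18 alternatives. Slc2a3 was lower in WT tumours (-1.43, SE 0.30, limma adjusted p = 0.0238). Kdm3a had 2302, 2995 and 2433 in unsorted WT tumours (-0.68, SE 0.13), and Car9 was lower in Pfp/Rag2-/- tumours (-1.20, SE 0.32).

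Other genes of the same pathways, from 2 lists of neighbours, did not follow the members as a block. Of 29 further genes of glycolysis and carbon metabolism tested in sorted cells 7 were higher and 6 lower in the Pfp/Rag2-/- host, with a median of -0.01. The share called was 44.8%, against 30.4% of all genes. G6pdx, the entry enzyme of the pentose phosphate pathway, had 1235, 1347 and 1368 in Pfp/Rag2-/- GFP+ cells against 2252, 2360.1 and 2101 in WT GFP+ cells (log2 -0.76, SE 0.07, limma adjusted p = 0.000477). Gpd1, which diverts a glycolytic intermediate to glycerol phosphate, had 792, 771 and 821 against 61.3, 103 and 189.7 in WT GFP+ cells (2.89, SE 0.36, limma adjusted p = 0.00201). G6pdx was thus below and Gpd1 above the WT range in every Pfp/Rag2-/- library. Pdk2 (0.74, SE 0.15) was higher and Pdk3 (-0.57, SE 0.06) lower, while the member Pdk1 did not pass.

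Of 32 further genes of the HIF pathway 6 were higher and 12 lower in sorted Pfp/Rag2-/- cells, with a median of 0.03. The share called was 56.25%, against 30.4% of all genes. Pgf, a relative of Vegfa, had 79.4, 84.5 and 44.2 in Pfp/Rag2-/- GFP+ cells, against 265, 191 and 227 in WT GFP+ cells (log2 -1.74, SE 0.27, limma adjusted p = 0.00439). Hmox1, heme oxygenase (-1.03, SE 0.11), and the nuclear receptor gene Rora (-1.44, SE 0.19) were lower as well. Lox, a collagen cross-linking oxidase, was the highest, with 68.5, 34.9 and 21.2 in Pfp/Rag2-/- GFP+ cells against 1.92, 1.90 and 3.68 in WT GFP+ cells (3.48, SE 0.49, limma adjusted p = 0.00309). The median of 6 pericyte and fibroblast markers, as a percentage of the GFP- level, was 227, 69.8 and 39.8 in the same Pfp/Rag2-/- libraries and 5.83, 6.14 and 21.1 in the WT ones, and their part in the Lox difference was not tested. Against culture 14 of 31 were higher and 7 lower in the Pfp/Rag2-/- host, and 18 of 29 higher and 8 lower in the WT host. For the glycolysis neighbours 11 of 29 were higher and 13 lower in the Pfp/Rag2-/- host, and 9 of 29 higher and 13 lower in the WT host. In the Pfp/Rag2-/- host 67.7% of the HIF neighbours and 82.8% of the glycolysis neighbours were called, against 72.2% of all genes. In the WT host these shares were 89.7% and 75.9%, against 65.6%.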

How the data were processed

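Messenger RNA libraries of 18 samples were read on a NextSeq 500 after directional preparation, per the labels' protocols. The deposited values are a signal per gene: read counts divided by the authors' size factor, 1 per library. Per the submitters' processing notes, the tools included STAR 2.5.2b and DESeq2, and the build was GRCm38. For the read counter, its strand setting and its annotation: not given in the sources used here. Of the deposited values 100% were whole multiples of 1 read within 0.05, so read counts were recovered for the count-based alternatives; 0 columns lacked a sample. The authors' read counts summed to 19172814 to 21141662 per library. Of the 48795 genes 48349 were named from GENCODE vM21, whose GRCm38 coordinates are used. With no strand setting known, 13 of the 38 genes share exon bases with an antisense gene and 3 with a gene on the same strand, so their counts are uncertain to that extent.

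Each comparison was fitted to its own libraries on log2(normalized count + 1), for genes with at least 10 in at least 3 libraries, by limma 3.58.1 under R 4.3.3, using lmFit and then eBayes with a mean trend; tests were two-sided and Benjamini-Hochberg adjusted over all genes. The scripts were tested on simulated data. The recovered reads were also tested with edgeR 4.0.16 (quasi-likelihood) and DESeq2 1.42.0. Scaling was changed to TMM factors or to quantile normalization, the filter to 50 or to none, and the pseudocount to 10. Other fits used robust eBayes, 1 fit over all 18 libraries, a replicate block, each library left out in turn, or no replicate 1 in the groups compared. Total read scaling and, for the interaction, leaving out replicate 1 of both GFP+ groups were added after seeing the data. Same-numbered GFP+ libraries of the hosts deviated together for numbers 1 and 2 (correlations 0.616 and 0.483). For number 3 the correlation was 0.102, and the best match was library 2. No label pairs these libraries, so a pairing by number is uncertain. There the block left the count of members called at 25, and over all genes it gave 4588 beside 4497. Ratios with 1 read in a group carry an exact Clopper-Pearson interval from scipy 1.17.1.

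The members and both neighbour lists were chosen with earlier results of these data known. Values per library are given for the 3 highest and 3 lowest called genes of each role in each comparison, and for any gene singled out. Neighbour lists are given by counts and by at most the 3 highest and 3 lowest called. Marker sums of other cells were computed from 7 lists. Near-identical copies were sought with at least 95% identity over 200 bases. Promoter sequences are from RefSeq.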

Additional observations from a re-analysis of the deposited data

How the results depend on the processing

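Of the genes called, 18 of 25 in sorted cells between hosts, 9 of 19 in unsorted tumours, 25 of 29 and 22 of 28 against culture in the Pfp/Rag2-/- and WT hosts, 17 of 23 between GFP- and GFP+ cells, 2 of 10 between unsorted and sorted cells in WT tumours and 4 of 17 in Pfp/Rag2-/- tumours were called under every alternative. Leaving out libraries gave 20 to 26, 10 to 25, 28 to 31, 27 to 30, 19 to 25, 2 to 11 and 4 to 20 in the same order, and 0 to 2 for the interaction. The low of 10 came without Pfp/Rag2-/- unsorted library 2, the low of 2 without WT unsorted library 3 and the low of 4 without Pfp/Rag2-/- GFP+ library 2. DESeq2 called 3 in the interaction and 16 in WT unsorted against sorted cells, where the replicate block gave 5; all 18 libraries in 1 fit gave 8 in Pfp/Rag2-/- unsorted against sorted cells. The cause was not tested beyond the fewer samples. The block gave 25 in sorted cells between hosts and 0 in the interaction. Between unsorted tumours the numbers do not pair the samples, with correlations of -0.223, 0.109 and -0.410, and the block gave 15. Between GFP- and GFP+ libraries the correlations were 0.212, 0.068 and 0.320, and the block gave 23. It gave 12 in Pfp/Rag2-/- unsorted against sorted cells.

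Against culture in the Pfp/Rag2-/- host Aldoa reversed under quantile normalization (0.0997) and total read scaling (0.0460). Between GFP- and GFP+ cells the reversed genes under those settings were Hk1 (-0.116 and -0.293), Aldoa (-0.587 and -0.264) and Ldha (-0.621 and -0.387); these settings lower the GFP- libraries by construction. Total read scaling moved the median against culture in the Pfp/Rag2-/- host by 0.17. Quantile normalization gave 18 higher and 14 lower there, against 13 and 16.

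Over all genes edgeR on the recovered reads called 4309 between hosts in sorted cells, 4527 in unsorted tumours, 70 in the interaction, 10430 and 9213 against culture, 12234 between GFP- and GFP+ cells, and 2471 and 4323 for unsorted against sorted cells in WT and Pfp/Rag2-/- tumours, beside 4497, 4620, 151, 10466, 9361, 12283, 2559 and 4625 in limma. The interaction count ranged from 0 to 1216 (DESeq2) over the alternatives. Leaving out libraries lowered the other counts to as few as 2340 in sorted cells (without library 1 of both hosts), 2280 in unsorted tumours (without Pfp/Rag2-/- library 2), 356 for WT unsorted against sorted cells (without WT unsorted library 3) and 2928 for Pfp/Rag2-/- ones. For WT unsorted against sorted cells a filter at 50 gave 1619 and all 18 libraries in 1 fit 3928, and the latter fit gave 2582 in Pfp/Rag2-/- tumours. Depth limits Ndrg1, Adm, Pfkfb4 and Epas1, which have few reads in culture.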
